A study of Mus musculus with 30 samples.

Results

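The vanins and the coenzyme A (CoA) turnover genes comprised 8 mouse genes: *Vnn1* and *Vnn3* (vanins), *Pank1*, *Pank2*, *Pank3* and *Ppcs* (CoA synthesis), and *Nudt7* and *Nudt19* (CoA cleavage). A probe set was taken as a member when its only annotated gene symbol was 1 of these names, which gave 10 of the 35556 probe sets on the array, for 8 of the 18820 genes that have a probe set of a single symbol. *Pank1* and *Nudt19* have 2 probe sets each, and both are shown. Expression was measured in the livers of male mice of approximately 8 weeks of age, 1 liver per array. The groups were PPARα/CREB3L3-/- (interbred from both lines, 4 livers per regimen), PPARα-/- (3 per regimen), CREB3L3-/- (4 per regimen) and WT C57BL/6 mice (4 per regimen). Each genotype was studied on 4 days of a ketogenic diet, eaten freely up to sampling, and after a 16 h fast. Both ablations were present in the whole body, and the PPARα allele is a partial deletion. Mice of the 2 regimens differ in diet and in feeding state together, and these cannot be told apart.

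CoA carries acyl groups through fatty acid oxidation, ketogenesis and lipid synthesis, and the liver enlarges its CoA pool during fasting. Pantothenate kinases (PANK) phosphorylate vitamin B5 in the first and rate-controlling step of CoA synthesis, and phosphopantothenoylcysteine synthetase, the product of *Ppcs*, adds cysteine in the next step. The products of *Nudt7* and *Nudt19* are peroxisomal enzymes that split CoA and acyl-CoA. Vanins are pantetheinases, which break the pantetheine released from CoA into vitamin B5 and cysteamine. PPARα is the nuclear receptor that drives hepatic fatty acid oxidation, and CREB3L3 is a liver-enriched transcription factor of the endoplasmic reticulum membrane. *Vnn1* is a known PPARα target in mouse liver.

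RefSeq promoter windows on GRCm38.p6, from 250 bases before to 50 bases after a transcription start, were found for 7 of the 8 members, with 11 windows in all. *Vnn1* had no window and was not searched. Nuclear receptors such as PPARα recognise the hexamer AGGTCA, often as 2 copies spaced by 1 base (AGGTCANAGGTCA), and TGACGT is the core of the cyclic AMP response element. Both strands were searched. The hexamer, present in 16.3% of all 32851 windows of that length, was found in 1 of the 11 member windows, that of *Ppcs*, where it begins at position -224 from the transcription start, on the gene's strand. The spaced pair, which contains the hexamer and is in 0.0396% of all windows, and TGACGT, in 7.51%, were found in 0 of the 11. The windows below belong to the 3 genes with a promoter in the table that were lower in PPARα-/- livers in both regimens. *Ppcs* is shown at chr4:119422371-119422670 (minus strand), *Pank1* at chr19:34879406-34879705 and at chr19:34877868-34878167 (minus strand), and *Nudt7* at chr8:114133368-114133667 (plus strand). Another *Nudt7* window, chr8:114133324-114133623, overlaps the one shown and was searched but is not printed. The printed windows read 5′ to 3′, and the capitals mark the hexamer.
Ppcs: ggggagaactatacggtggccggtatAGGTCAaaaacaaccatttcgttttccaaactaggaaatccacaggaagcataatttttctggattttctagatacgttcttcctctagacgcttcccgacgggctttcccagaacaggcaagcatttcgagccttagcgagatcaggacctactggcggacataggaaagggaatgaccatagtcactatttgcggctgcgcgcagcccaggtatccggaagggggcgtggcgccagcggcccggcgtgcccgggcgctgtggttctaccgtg
Pank1, window 1: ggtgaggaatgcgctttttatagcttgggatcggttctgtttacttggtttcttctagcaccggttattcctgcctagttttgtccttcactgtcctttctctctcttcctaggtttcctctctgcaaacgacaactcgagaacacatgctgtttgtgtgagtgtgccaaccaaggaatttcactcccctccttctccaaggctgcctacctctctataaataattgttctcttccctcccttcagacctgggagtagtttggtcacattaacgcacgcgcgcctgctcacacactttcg
Pank1, window 2: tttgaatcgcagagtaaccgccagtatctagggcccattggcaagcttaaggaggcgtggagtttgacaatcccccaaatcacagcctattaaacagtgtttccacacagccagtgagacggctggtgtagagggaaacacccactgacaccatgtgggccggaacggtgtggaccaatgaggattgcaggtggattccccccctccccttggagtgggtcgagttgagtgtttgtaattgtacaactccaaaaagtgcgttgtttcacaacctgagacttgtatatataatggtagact
Nudt7: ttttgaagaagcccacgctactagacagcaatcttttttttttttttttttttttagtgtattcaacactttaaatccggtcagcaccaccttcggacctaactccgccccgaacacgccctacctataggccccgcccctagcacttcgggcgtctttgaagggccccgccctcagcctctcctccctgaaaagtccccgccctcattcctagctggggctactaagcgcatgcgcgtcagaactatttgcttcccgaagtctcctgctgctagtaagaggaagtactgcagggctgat

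Array medians lay between 4.22 and 4.38 on the log2 scale, and arrays of 1 group correlated at 0.978 to 0.990. *Creb3l3* was at 4.29 to 5.36 in the livers labelled as lacking it and at 9.49 to 11.28 in all others. The 8 hepatocyte markers averaged 11.89 to 13.02 per array. On the ketogenic diet, cell type markers differed from WT in all 3 knockouts. The mean over the hepatocyte markers was 12.43 to 12.58 in PPARα/CREB3L3-/-, 12.45 to 12.47 in PPARα-/- and 11.89 to 12.42 in CREB3L3-/- livers, against 12.71 to 12.83 in WT livers, so that every knockout liver on the diet was below every WT liver. Of these 8 markers, 5 were lower in PPARα/CREB3L3-/-, 6 in PPARα-/- and 5 in CREB3L3-/- livers, and 0 were higher. The list from which they were drawn includes *Apoa1*, which the paper counts among the targets of CREB3L3. The mean over 12 macrophage markers was 6.30 to 6.80 in PPARα/CREB3L3-/-, 6.30 to 6.57 in PPARα-/- and 7.92 to 8.28 in CREB3L3-/- livers, against 6.29 to 7.17 in WT livers, and 2 were higher and 4 lower in PPARα/CREB3L3-/-, 1 higher and 4 lower in PPARα-/- and 7 higher and 0 lower in CREB3L3-/- livers. That over 8 stellate cell markers was 5.33 to 6.18 in PPARα/CREB3L3-/-, 5.41 to 5.68 in PPARα-/- and 7.27 to 7.96 in CREB3L3-/- livers, against 5.97 to 6.19 in WT livers, and 3 were lower and 0 higher in PPARα/CREB3L3-/- and in PPARα-/- livers and 7 higher and 0 lower in CREB3L3-/- livers. Of 7 endothelial markers 1 was higher and 5 lower in PPARα/CREB3L3-/- livers, and of 5 B and plasma cell markers 3 were lower in PPARα-/- livers. Neutrophil markers averaged 4.14, 4.45, 6.43 and 4.46 in CREB3L3-/- livers 1 to 4, against 3.54 to 4.55 in WT livers. After the fast the macrophage mean was 6.48 to 6.82 in PPARα/CREB3L3-/- and 6.53 to 6.59 in PPARα-/- livers, against 6.16 to 6.41 in WT livers. The fasted hepatocyte mean was 12.95 to 13.02 in PPARα-/- livers, against 12.78 to 12.92 in WT livers. In these fasted comparisons 0 of the macrophage and hepatocyte markers were called. Of 8 T and NK cell markers 1 was higher and 1 lower in fasted PPARα/CREB3L3-/- livers. In fasted CREB3L3-/- livers 1 of the 8 hepatocyte markers and 1 of the 5 B and plasma cell markers were lower. The part of these shifts in the results for the knockout livers was not tested. In tissue RNA, fewer cells of a type and less RNA per cell cannot be told apart.

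*Vnn1*, which encodes vanin 1, the main liver pantetheinase (probe set 10362138, gene at chr10:23894688-23905344), showed the widest range of the members. On the ketogenic diet its log2 intensity was 3.79, 4.02, 4.08 and 4.33 in PPARα/CREB3L3-/- livers, 4.12, 3.82 and 3.70 in PPARα-/- livers, 9.12, 9.02, 8.96 and 9.07 in CREB3L3-/- livers and 10.71, 11.11, 10.70 and 10.67 in WT livers. After the fast it was 5.77, 4.98, 5.46 and 7.10 in PPARα/CREB3L3-/- livers, 3.44, 4.70 and 5.25 in PPARα-/- livers, 10.79, 11.11, 10.63 and 10.89 in CREB3L3-/- livers and 10.87, 10.19, 9.75 and 10.84 in WT livers. All livers without PPARα were lower than all livers with it, and on the diet those without PPARα lay between 3.70 and 4.33, within or below the range of the array medians, where the background of the array bounds the size of a decrease. The difference of PPARα-/- from WT was -6.92 on the log2 scale on the diet (standard error (SE) 0.36, adjusted p = 6.06e-13, limma) and -5.95 after the fast (SE 0.36, adjusted p = 3.33e-11). CREB3L3-/- livers on the diet did not overlap with WT and were 1.76 lower (SE 0.33, adjusted p = 1.31e-04), a 3.38-fold decrease, and their 4 values spanned 8.96 to 9.12. After the fast CREB3L3-/- livers differed from WT by 0.45 (SE 0.33, 95% interval -0.24 to 1.13), which did not pass the test. The effect of CREB3L3 ablation differed between the regimens by -2.20 (SE 0.47, adjusted p = 9.36e-04).

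In order of mean level, fasted CREB3L3-/- (10.86), WT on the diet (10.80) and fasted WT (10.41) overlapped as neighbours, CREB3L3-/- on the diet (9.04) was separate on both sides, and then came fasted PPARα/CREB3L3-/- (5.83), fasted PPARα-/- (4.46), PPARα/CREB3L3-/- on the diet (4.05) and PPARα-/- on the diet (3.88), each overlapping with the next. Between the fasted groups without PPARα, PPARα/CREB3L3-/- livers were 1.37 above PPARα-/- livers (SE 0.36, adjusted p = 0.0538, unadjusted P = 8.43e-04). The call was lost when any of 21 of the 30 arrays was left out, with differences of 0.854 to 1.76, the lowest without PPARα-/- liver 1. The ranges of these 2 groups overlapped.

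*Vnn3*, the neighbouring vanin gene (probe set 10362129, chr10:23851462-23869843), was lower in CREB3L3-/- and in PPARα-/- livers on the diet. On the diet its log2 intensity was 7.98, 7.81, 8.36 and 8.52 in PPARα/CREB3L3-/- livers, 7.66, 7.53 and 7.77 in PPARα-/- livers, 8.38, 6.23, 6.31 and 7.67 in CREB3L3-/- livers and 9.25, 9.16, 9.24 and 9.09 in WT livers. Every knockout liver on the diet was below every WT liver, and CREB3L3-/- livers 2 and 3 were the lowest of all 30. The difference from WT was -2.04 in CREB3L3-/- livers (SE 0.32, adjusted p = 8.15e-06) and -1.53 in PPARα-/- livers (SE 0.34, adjusted p = 1.78e-03). That in PPARα/CREB3L3-/- livers, -1.01 (SE 0.32), did not pass the test (adjusted p = 0.0205, limma). The spread within CREB3L3-/- was wide (SD 1.05, n = 4), and the call in this group was lost when the variance was estimated from the 2 groups compared alone. That in PPARα-/- was lost without PPARα-/- liver 2 (-1.58 to -1.47 over all arrays) and with the ketogenic arrays fitted alone. After the fast *Vnn3* was 8.37, 7.56, 7.74 and 8.82 in PPARα/CREB3L3-/- livers, 7.77, 8.03 and 7.56 in PPARα-/- livers, 8.63, 8.60, 8.38 and 8.93 in CREB3L3-/- livers and 8.59, 8.40, 8.50 and 8.52 in WT livers, and no group passed the test against WT. The effect of CREB3L3 ablation differed between the regimens by -2.17 (SE 0.45, adjusted p = 5.78e-04).

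**Figure D1:**
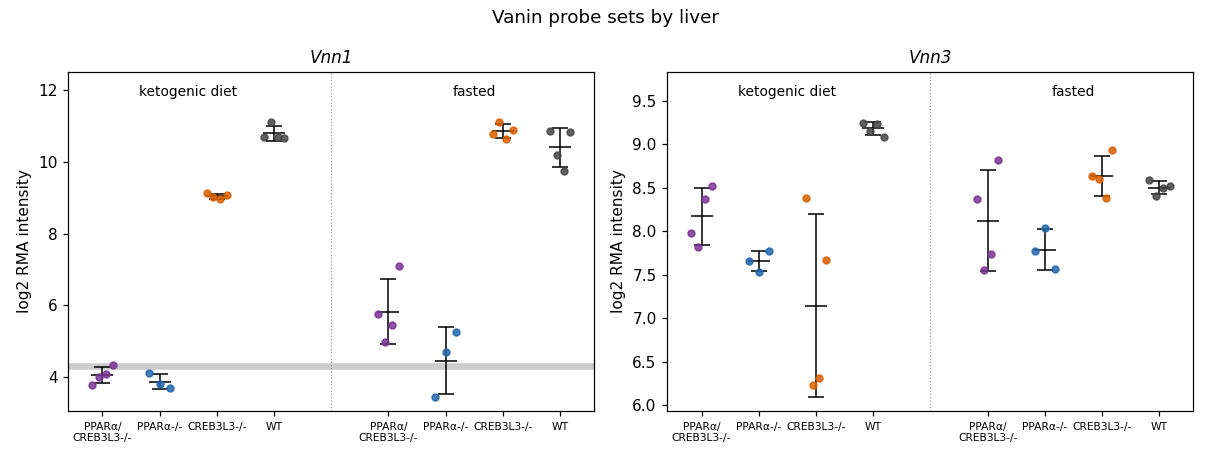
Log2 RMA intensity of *Vnn1* (left) and *Vnn3* (right) in each liver, by genotype on the ketogenic diet and after the fast. Points are livers, bars are the group mean ± SD (n = 3 in PPARα-/- groups and 4 in the others), and the grey band in the left panel spans the array medians, 4.22 to 4.38. *Vnn1* of all livers without PPARα is at 7.10 or below, and CREB3L3-/- livers on the diet lie between these and WT.

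*Pank1* (chr19:34806935-34883423) encodes a pantothenate kinase that is abundant in liver. Its brighter probe set (10467162) had log2 intensities on the diet of 8.99, 9.16, 9.51 and 9.38 in PPARα/CREB3L3-/- livers, 8.77, 9.05 and 8.76 in PPARα-/- livers, 8.51, 7.91, 7.84 and 8.64 in CREB3L3-/- livers and 10.61, 10.61, 10.44 and 10.71 in WT livers. After the fast the values were 10.07, 9.86, 10.05 and 10.51 in PPARα/CREB3L3-/- livers, 10.13, 10.10 and 9.96 in PPARα-/- livers, 11.10, 11.24, 11.03 and 11.14 in CREB3L3-/- livers and 11.15, 11.10, 10.97 and 10.87 in WT livers. On the diet the lowest group was CREB3L3-/-, whose 4 livers were below every other liver of the series, whereas after the fast CREB3L3-/- and WT livers overlapped. The difference from WT on the diet was -2.37 in CREB3L3-/- livers (SE 0.15, 5.16-fold, adjusted p = 2.21e-12) and -1.73 in PPARα-/- livers (SE 0.16, 3.32-fold, adjusted p = 5.69e-09). After the fast it was -0.96 in PPARα-/- livers (SE 0.16, adjusted p = 3.48e-04) and 0.10 in CREB3L3-/- livers (SE 0.15, 95% interval -0.20 to 0.40), which did not pass the test. The effect of CREB3L3 ablation on the diet was 2.47 below that after the fast (SE 0.21, adjusted p = 2.84e-09).

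With both genes ablated, *Pank1* on the diet was 1.03 above its level in CREB3L3-/- livers (SE 0.15, adjusted p = 3.14e-06) and 0.40 above its level in PPARα-/- livers (SE 0.16), a difference that did not pass the test. The interaction of the ablations, the effect of CREB3L3 ablation in the absence of PPARα minus that in its presence, was 2.77 (SE 0.22, adjusted p = 8.62e-10) on the diet and -0.04 (SE 0.22) after the fast. The dimmer *Pank1* probe set (10462630), annotated to 1 of the 2 RefSeq transcripts of the brighter set, averaged 5.15 over all arrays, and the pair correlated at 0.743 over the 30 arrays. It was at 3.91, 3.35, 3.34 and 4.24 in CREB3L3-/- livers on the diet, at or below the array medians, and at 5.20, 5.19, 5.69 and 3.87 in WT livers. The difference was -1.28 (SE 0.32, adjusted p = 2.74e-03), and the call was lost when 1 of 5 arrays (WT liver 1, 2 or 3 or CREB3L3-/- liver 2 or 3 on the diet) was left out, with differences of -1.65 to -1.04 over all arrays, and with the ketogenic arrays or the groups compared fitted alone. The groups overlapped through WT liver 4. Its interaction on the diet, 2.34 (SE 0.48, adjusted p = 4.51e-04), kept the call without any single array.

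*Ppcs* (probe set 10515920, chr4:119418527-119422440) was lower without PPARα in both regimens. On the diet its log2 intensity was 5.29, 5.60, 5.22 and 5.46 in PPARα/CREB3L3-/- livers, 5.84, 6.01 and 5.89 in PPARα-/- livers, 5.83, 6.59, 6.55 and 6.74 in CREB3L3-/- livers and 6.78, 6.89, 6.71 and 6.76 in WT livers. After the fast it was 5.87, 5.89, 5.89 and 6.11 in PPARα/CREB3L3-/- livers, 5.81, 5.98 and 5.97 in PPARα-/- livers, 6.47, 6.86, 6.56 and 6.76 in CREB3L3-/- livers and 6.76, 6.75, 6.61 and 6.75 in WT livers. With the exception of CREB3L3-/- liver 1 on the diet, at 5.83, every liver with PPARα was above every liver without it. PPARα-/- livers were 0.87 below WT on the diet (SE 0.14, adjusted p = 6.62e-05) and 0.80 below WT after the fast (SE 0.14, adjusted p = 9.14e-04). CREB3L3-/- livers did not pass the test against WT in either regimen, with differences of -0.36 (SE 0.13, 95% interval -0.64 to -0.08) on the diet and -0.06 (SE 0.13) after the fast. On the diet PPARα/CREB3L3-/- livers were 1.39 below WT (SE 0.13, adjusted p = 8.00e-09), and they lay below PPARα-/- livers without overlap, a difference of -0.52 (SE 0.14, adjusted p = 0.0467) that did not pass P under 0.001.

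The other pantothenate kinase genes moved by smaller amounts. *Pank3* (probe set 10375216, chr11:35769495-35791285), a cytosolic kinase, was on the diet at 7.73, 7.81, 7.59 and 7.80 in PPARα/CREB3L3-/- livers, 8.04, 8.29 and 8.00 in PPARα-/- livers, 7.98, 7.94, 8.04 and 8.15 in CREB3L3-/- livers and 8.40, 8.40, 8.56 and 8.62 in WT livers. All knockout livers were below all WT livers. The differences from WT were -0.76 in PPARα/CREB3L3-/- (SE 0.08, adjusted p = 8.93e-08), -0.39 in PPARα-/- (SE 0.09, adjusted p = 2.81e-03) and -0.47 in CREB3L3-/- livers (SE 0.08, adjusted p = 6.16e-05). The call in PPARα-/- was lost when PPARα-/- liver 1 or 3 or WT liver 3 or 4 on the diet was left out (-0.48 to -0.33), and with the ketogenic arrays or the groups compared fitted alone. After the fast no knockout passed the test against WT. All fasted CREB3L3-/- livers (8.58 to 8.84) were nevertheless above all fasted WT livers (8.27 to 8.55). Fasted PPARα/CREB3L3-/- (8.27 to 8.44) and PPARα-/- livers (8.03 to 8.33) overlapped with WT. *Pank2* (probe set 10476287, chr2:131262008-131299188), whose human counterpart is mutated in a neurodegeneration with brain iron, moved the other way: CREB3L3-/- livers on the diet were at 8.49, 8.68, 8.77 and 8.62 and WT livers at 8.46, 8.33, 8.26 and 8.36. The difference was 0.29 (SE 0.06, 1.22-fold, adjusted p = 4.51e-04). The call was lost with arrays centred on their medians (0.24), with the ketogenic arrays or the groups compared fitted alone, and without CREB3L3-/- liver 3 or WT liver 3 on the diet (0.24 to 0.34). *Pank2* was also 0.29 higher in fasted PPARα-/- livers (8.37 to 8.53) than in fasted WT livers (8.12 to 8.19, SE 0.07, adjusted p = 6.60e-03, limma). That call was lost without fasted PPARα-/- liver 1 (0.26 to 0.33 over all arrays), after repeated quantile normalization and with those groups fitted alone. Fasted PPARα/CREB3L3-/- livers (8.36 to 8.45) and CREB3L3-/- livers (8.33 to 8.40) were also above all fasted WT livers, though not called.

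**Figure D2:**
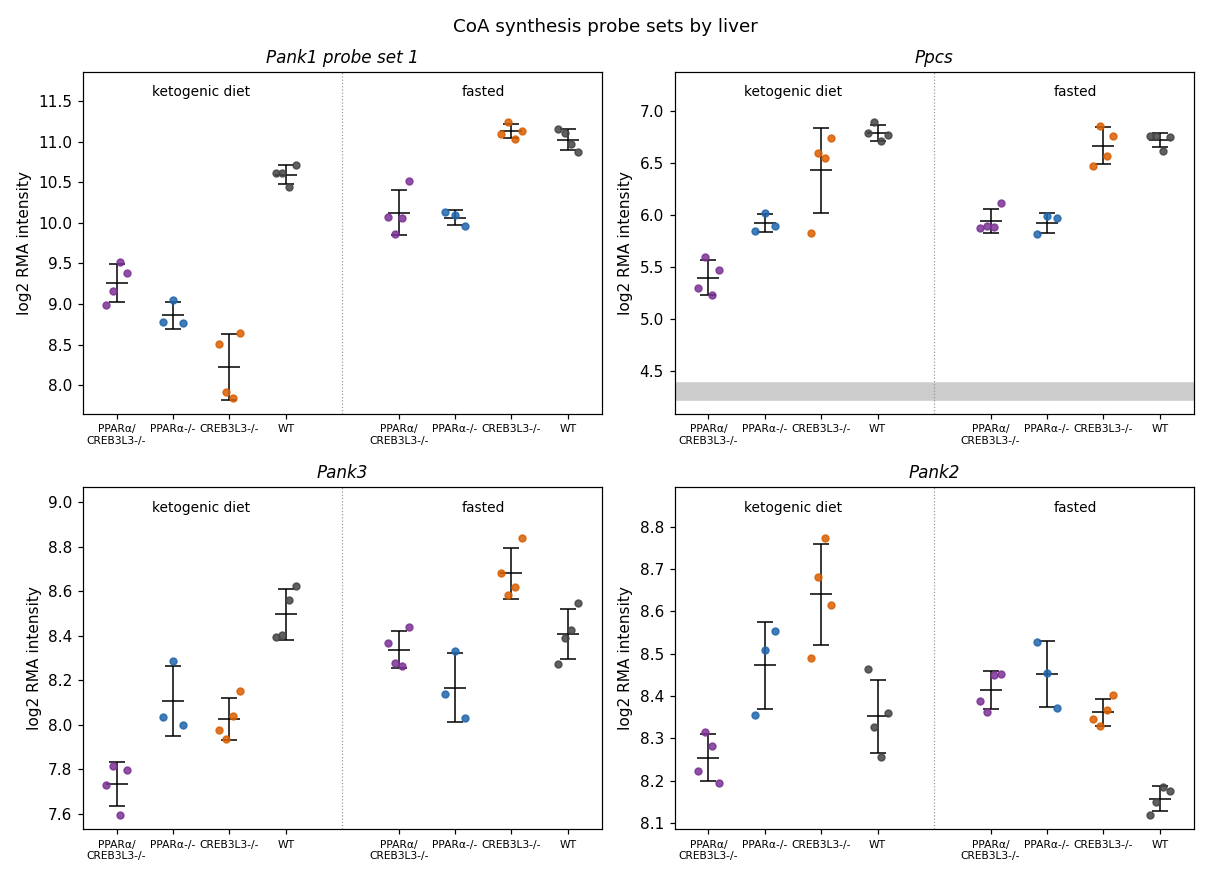
Log2 RMA intensity of the brighter *Pank1* probe set, *Ppcs*, *Pank3* and *Pank2* in each liver, by genotype and regimen. Points are livers and bars the group mean ± SD (n = 3 in PPARα-/- groups and 4 in the others); axes differ between panels and do not start at 0, and the grey band spans the array medians. On the diet CREB3L3-/- livers have the lowest *Pank1* values of all groups, whereas their *Ppcs* values overlap with those of WT.

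*Nudt7* (probe set 10575685, chr8:114133574-114154731), the peroxisomal CoA diphosphatase of liver, had log2 intensities on the diet of 8.30, 8.32, 7.84 and 8.17 in PPARα/CREB3L3-/- livers, 8.43, 8.76 and 8.41 in PPARα-/- livers, 8.97, 7.18, 7.18 and 7.64 in CREB3L3-/- livers and 10.48, 10.68, 10.64 and 10.85 in WT livers. After the fast it was 10.23, 10.32, 10.82 and 10.08 in PPARα/CREB3L3-/- livers, 9.64, 9.62 and 9.75 in PPARα-/- livers, 11.55, 11.28, 11.25 and 10.52 in CREB3L3-/- livers and 11.23, 10.77, 10.48 and 10.63 in WT livers. All knockout livers on the diet were at least 1 log2 unit below all WT livers, and CREB3L3-/- liver 1 was well above the other 3 of its group. The difference from WT on the diet was -2.92 in CREB3L3-/- (SE 0.27, 7.57-fold, adjusted p = 1.88e-09), -2.13 in PPARα-/- (SE 0.29, 4.37-fold, adjusted p = 4.10e-06) and -2.50 in PPARα/CREB3L3-/- livers (SE 0.27, 5.67-fold, adjusted p = 5.78e-08). Without any single array the CREB3L3-/- difference was -3.33 to -2.73.

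After the fast *Nudt7* in PPARα-/- livers differed from WT by -1.104 (SE 0.29, adjusted p = 0.0217, unadjusted P = 8.41e-04), with no overlap. The call was lost when any of 20 of the 30 arrays was left out, with differences of -1.20 to -0.953, without the intensity trend and after repeated quantile normalization. Fasted CREB3L3-/- and PPARα/CREB3L3-/- livers did not pass the test against WT, at 0.37 and -0.41 (SE 0.27 each). The effect of CREB3L3 ablation was 3.29 lower on the diet than after the fast (SE 0.38, adjusted p = 3.68e-07), and that of the combined ablation 2.09 lower (SE 0.38, adjusted p = 3.36e-04). The interaction on the diet was 2.54 (SE 0.40, adjusted p = 1.82e-05).

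*Nudt19* (chr7:35547185-35558643), which encodes the CoA diphosphatase known mainly from mouse kidney, did not follow *Nudt7*. Its brighter probe set (10562480) spanned 7.96 to 8.23 in PPARα/CREB3L3-/- livers on the diet, 7.97 to 8.18 in PPARα-/- livers, 7.64 to 8.35 in CREB3L3-/- livers and 7.68 to 7.99 in WT livers. After the fast the spans were 7.61 to 7.84 in PPARα/CREB3L3-/- livers, 7.72 to 7.92 in PPARα-/- livers, 7.52 to 7.84 in CREB3L3-/- livers and 7.56 to 7.92 in WT livers. It was called in 0 of the 19 comparisons by limma, and its unadjusted P was under 0.05 in 3 of them. The dimmer set (10552208) averaged 4.10, below every array median, and the pair correlated at 0.161 over 30 arrays. Its values in PPARα/CREB3L3-/- livers on the diet, 4.82, 4.38, 5.04 and 4.44, were above those in WT livers, 3.95, 4.01, 3.94 and 3.83 (difference 0.74, SE 0.16, adjusted p = 9.68e-04, not called with these groups fitted alone), but the brighter set differed by 0.27 (SE 0.12) and did not pass the test.

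**Figure D3:**
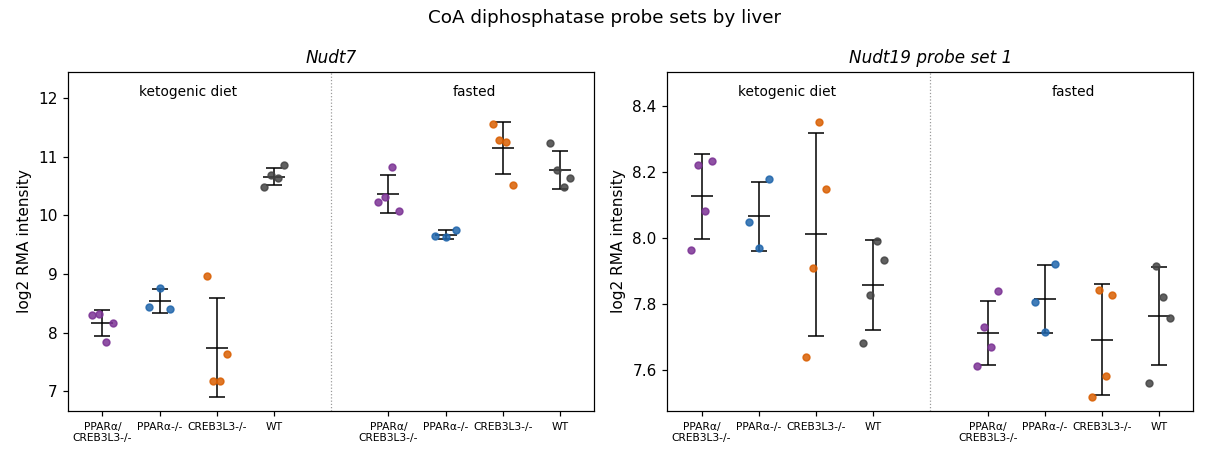
Log2 RMA intensity of *Nudt7* (left) and the brighter *Nudt19* probe set (right) in each liver, by genotype and regimen. Points are livers and bars the group mean ± SD (n = 3 in PPARα-/- groups and 4 in the others); the axes differ and do not start at 0. On the diet all knockout livers are below WT for *Nudt7*, whereas the *Nudt19* groups overlap.

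Over the 10 probe sets, the comparisons with WT gave the following counts of calls (P under 0.001 and a fold change beyond 1.2). On the diet, 5 member probe sets were lower and 1 higher in PPARα/CREB3L3-/- livers, where 14.0% of all probe sets were called (6.87% lower and 7.11% higher). The higher one was the dimmer *Nudt19* set. In PPARα-/- livers 6 were lower and 0 higher, where 10.9% were called (4.81% lower and 6.11% higher). In CREB3L3-/- livers 6 were lower and 1 higher, where 21.4% were called (8.56% lower and 12.8% higher). After the fast, 3 were lower and 0 higher in PPARα/CREB3L3-/- livers (6.98% of all probe sets called, 2.79% lower and 4.19% higher), and 4 were lower and 1 higher in PPARα-/- livers (4.00% called, 1.77% lower and 2.23% higher). In fasted CREB3L3-/- livers 0 were called by limma, where 1.39% of all probe sets were (0.599% lower and 0.787% higher), and 2 of the 10 had an unadjusted P under 0.05. The median member difference on the diet was -0.89 in PPARα/CREB3L3-/-, -0.68 in PPARα-/- and -0.87 in CREB3L3-/- livers, beside 0.01, 0.01 and -0.06 over all probe sets. These comparisons share the WT livers of their regimen.

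**Figure D4:**
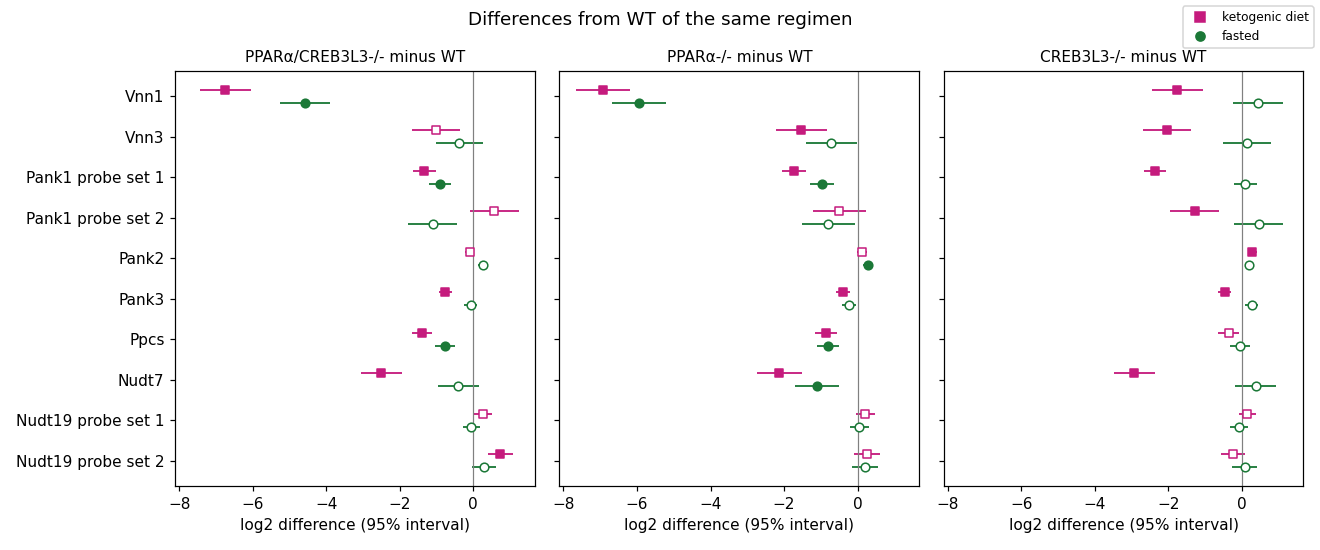
Log2 difference from WT of the same regimen for each member probe set, with its 95% interval, in PPARα/CREB3L3-/- (left), PPARα-/- (middle) and CREB3L3-/- livers (right). Squares are the ketogenic diet and circles the fast, and filled symbols passed P under 0.001 with a fold change beyond 1.2. In the right panel 7 probe sets are filled on the diet and 0 after the fast.

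Tested as a difference between the regimens, the effect of CREB3L3 ablation was more negative on the diet for 6 probe sets, of *Vnn1*, *Vnn3*, *Pank1* (both sets), *Pank3* and *Nudt7*, where 13.8% of all probe sets passed (5.78% lower and 7.99% higher). The *Pank3* value was -0.74 (SE 0.12, adjusted p = 3.23e-05). That of the dimmer *Pank1* set, -1.74 (SE 0.46, adjusted p = 6.25e-03), was lost when any of 17 of the 30 arrays was left out (-2.11 to -1.50). The effect of the combined ablation differed for 4 probe sets, all lower on the diet (8.26% of all probe sets passed, 4.31% lower and 3.95% higher): *Vnn1*, *Pank2* (-0.35), *Pank3* (-0.69) and *Nudt7*. The *Pank2* call was lost when any of 4 arrays was left out (-0.39 to -0.32) and after repeated quantile normalization. The effect of PPARα ablation differed for 0 of the 10 by limma, where 4.83% of all probe sets passed (2.83% higher), and 2 of the 10 had an unadjusted P under 0.05. These were the brighter *Pank1* set at -0.77 (SE 0.23, 95% interval -1.24 to -0.30) and *Nudt7* at -1.02 (SE 0.41, 95% interval -1.87 to -0.17).

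Within each genotype the ketogenic diet was also set against the fast. In PPARα/CREB3L3-/- livers 5 member probe sets were lower on the diet and 0 higher (14.5% of all probe sets called, 7.09% lower and 7.42% higher): *Nudt7* (-2.21, SE 0.27), *Vnn1* (-1.78), *Pank1* (-0.87), *Pank3* (-0.60) and *Ppcs* (-0.55). The *Ppcs* call was lost without PPARα/CREB3L3-/- liver 1 or 3 on the diet or fasted liver 4 (-0.61 to -0.49) and after centring or repeated quantile normalization, and the *Vnn1* call with those groups fitted alone. On the diet *Vnn1* of these livers was at 3.79 to 4.33, within or below the range of the array medians, which bounds its decrease. In PPARα-/- livers the brighter *Pank1* set alone was lower, at -1.20 (SE 0.17, adjusted p = 9.73e-06, 10.2% called, 4.46% lower and 5.74% higher), and *Nudt7* reached -1.14 (SE 0.31) without passing the test. In CREB3L3-/- livers 6 were lower and 1 higher (25.4% called, 11.1% lower and 14.3% higher), led by *Nudt7* at -3.41 (SE 0.27, adjusted p = 9.17e-11) and *Pank1* at -2.90 (SE 0.15, adjusted p = 3.71e-14). In WT livers 0 of the 10 were called by limma, where 4.25% of all probe sets were (1.72% lower and 2.53% higher), and 4 had an unadjusted P under 0.05. The largest WT differences were -0.94 for the dimmer *Pank1* set (SE 0.32) and 0.68 for *Vnn3* (SE 0.32). All 4 *Vnn3* values on the diet (9.09 to 9.25) were above all 4 after the fast (8.40 to 8.59). The WT regimens were also separate for *Pank2*, higher on the diet (8.26 to 8.46 against 8.12 to 8.19). They were separate for the brighter *Pank1* set too, lower on the diet (10.44 to 10.71 against 10.87 to 11.15).

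Whether the ablations add up was read from the combined knockout. On the diet, PPARα/CREB3L3-/- livers differed from PPARα-/- livers for 1 of the 10 probe sets, *Pank3*, at -0.37 (SE 0.09, adjusted p = 0.0241), where 2.42% of all probe sets were called (1.59% lower and 0.824% higher). That call was lost without PPARα-/- liver 2 or PPARα/CREB3L3-/- liver 3 on the diet (-0.43 to -0.28), and with the ketogenic arrays or the groups compared fitted alone. Against CREB3L3-/- livers, 3 probe sets were lower and 3 higher (20.4% called, 11.7% lower and 8.72% higher). The lower ones were *Vnn1* (-4.99, SE 0.33), *Ppcs* (-1.03, SE 0.13) and *Pank2* (-0.39, SE 0.06, not called with those groups fitted alone). The higher ones were both *Pank1* sets (1.03 and 1.85) and the dimmer *Nudt19* set (0.98, SE 0.16). That *Nudt19* set was at 3.44 to 3.91 in CREB3L3-/- livers, below every array median. The brighter *Nudt19* set, with means of 8.13 and 8.01, was not called. The interaction on the diet passed for 6 probe sets, 5 of them positive (15.9% of all probe sets, 5.94% positive and 10.0% negative). They were both *Pank1* sets, *Vnn3* (2.55, SE 0.46, adjusted p = 1.24e-04), *Nudt7* and *Vnn1* (1.93, SE 0.49, adjusted p = 3.93e-03), with *Pank2* negative (-0.51, SE 0.09, adjusted p = 9.24e-05). For *Vnn1* the levels without PPARα were at the array medians, which bounds the change that could be seen there, and its call was lost when any of 8 arrays was left out (1.83 to 2.05). *Ppcs* (-0.16, SE 0.20, 95% interval -0.57 to 0.24) and *Pank3* (0.10, SE 0.12, 95% interval -0.16 to 0.35) did not pass.

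After the fast the interaction passed for 0 of the 10 probe sets by limma, where 0.762% of all probe sets did (0.425% negative and 0.337% positive), and 1 had an unadjusted P under 0.05. Fasted PPARα/CREB3L3-/- livers differed from PPARα-/- livers for *Vnn1* alone (1.67% of all probe sets called, 0.847% lower and 0.821% higher). Against fasted CREB3L3-/- livers 5 were lower and 0 higher (5.28% called, 2.37% lower and 2.91% higher): *Vnn1* (-5.03, SE 0.33), both *Pank1* sets (the dimmer at -1.57), *Ppcs* (-0.72) and *Pank3* (-0.34). The *Pank3* call was lost when any of 4 arrays was left out (fasted CREB3L3-/- liver 1 or 4 or PPARα/CREB3L3-/- liver 2 or 3; -0.38 to -0.29) and with those groups fitted alone.

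**Figure D5:**
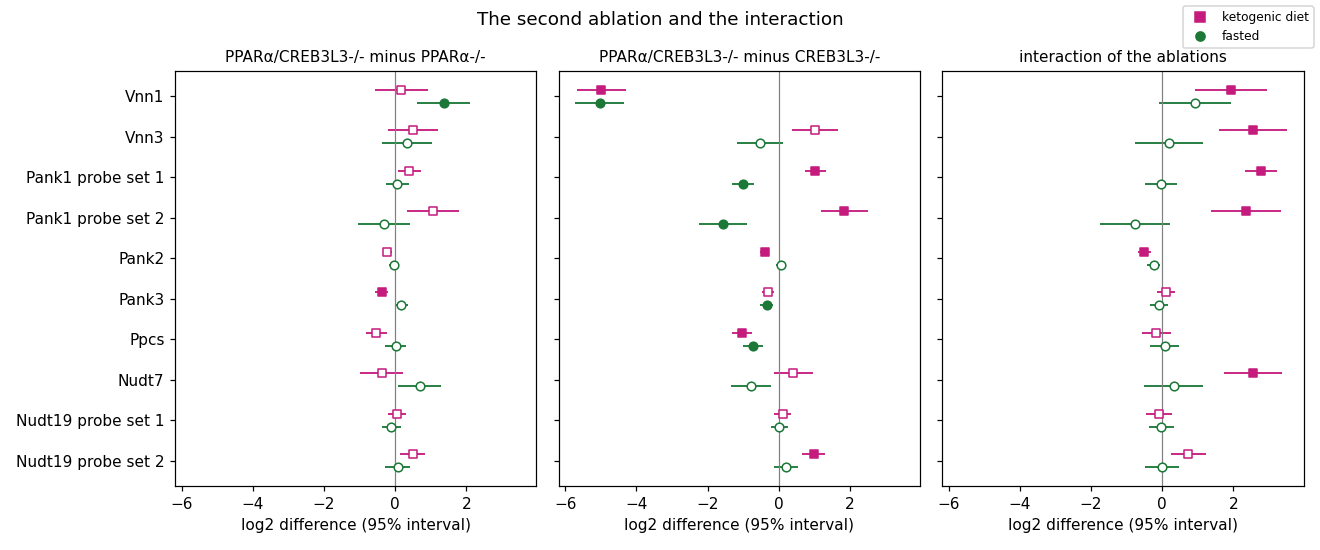
Log2 difference of PPARα/CREB3L3-/- livers from PPARα-/- livers (left) and from CREB3L3-/- livers (middle), and the interaction of the ablations (right), with 95% intervals. Squares are the ketogenic diet and circles the fast, and filled symbols passed P under 0.001 with a fold change beyond 1.2. The interaction is filled for 6 probe sets on the diet and 0 after the fast.

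The single knockouts were also compared directly, a comparison chosen after the values were seen. On the diet PPARα-/- livers were 5.17 below CREB3L3-/- livers for *Vnn1* (SE 0.36, adjusted p = 2.66e-11) and 0.63 above them for the brighter *Pank1* set (SE 0.16, adjusted p = 3.62e-03), and no other member passed (16.0% of all probe sets called, 9.03% lower and 6.93% higher). *Nudt7* differed by 0.79 (SE 0.29, adjusted p = 0.0474, limma) and *Ppcs* by -0.51 (SE 0.14, adjusted p = 0.0097, limma), and neither reached P under 0.001. After the fast PPARα-/- livers were lower for 5 probe sets and higher for 0 (3.86% called, 1.91% lower and 1.95% higher): *Vnn1* (-6.39), *Nudt7* (-1.48), *Pank1* (-1.06), *Ppcs* (-0.74) and *Pank3* (-0.51).

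Other genes of CoA synthesis, transport and turnover were represented by 12 of 14 listed. On the diet 4 were lower and 0 higher in PPARα/CREB3L3-/- livers (median -0.23, beside 0.01 over all probe sets, of which 14.0% were called), 2 lower and 1 higher in PPARα-/- livers (median -0.08 beside 0.01, 10.9% called) and 7 lower and 0 higher in CREB3L3-/- livers (median -0.60 beside -0.06, 21.4% called). *Coasy*, which encodes the enzyme of the last steps of CoA synthesis, differed from WT by -0.60 in PPARα/CREB3L3-/- (adjusted p = 5.31e-04), -0.44 in PPARα-/- (adjusted p = 0.0228, not called) and -1.84 in CREB3L3-/- livers on the diet (adjusted p = 7.24e-12). *Slc25a42*, the mitochondrial CoA carrier, differed from WT by -1.42 in PPARα/CREB3L3-/-, -1.33 in PPARα-/- and -1.95 in CREB3L3-/- livers on the diet. It fell by 1.48 in fasted PPARα-/- livers and did not pass in fasted CREB3L3-/- livers (adjusted p = 0.999). *Slc25a16*, a related carrier, differed by -0.40 in PPARα-/- and -1.01 in CREB3L3-/- livers on the diet. The mitochondrial CoA diphosphatase gene *Nudt8* was 0.56 higher in PPARα-/- livers on the diet (adjusted p = 3.47e-04). The interaction on the diet passed for 5 of the 12, all positive, where 15.9% of all probe sets passed.

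Cysteamine, the other product of vanins, can be oxidised to hypotaurine, and 11 of 12 listed genes of cysteine, cysteamine and taurine were measured. On the diet 0 were higher and 2 lower in PPARα/CREB3L3-/- livers (median -0.05 beside 0.01 over all probe sets, 14.0% called) and 1 higher and 5 lower in CREB3L3-/- livers (median -0.37 beside -0.06, 21.4% called), the sulfurtransferase gene *Mpst* (-1.13) among the lower ones in CREB3L3-/- livers. In PPARα-/- livers 2 were higher and 1 lower in each regimen, where 10.9% of all probe sets were called on the diet (list median 0.14 beside 0.01) and 4.00% after the fast (0.30 beside -0.00179): *Mpst* was lower in both (-0.62 on the diet, -0.96 after the fast), *Gss* (glutathione synthetase) was higher in both (0.55 each), *Got1* was higher on the diet (1.12) and the taurine transporter gene *Slc6a6* after the fast (0.66).

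Among genes of peroxisomal acyl-CoA metabolism, 15 of 18 listed, 10 were lower and 1 higher in PPARα/CREB3L3-/- livers on the diet (median -1.23, 14.0% of all probe sets called), 7 lower and 2 higher in PPARα-/- (median -1.05, 10.9% called) and 8 lower and 2 higher in CREB3L3-/- livers (median -0.92, 21.4% called), beside medians of -0.06 to 0.01 over all probe sets. *Ehhadh*, a peroxisomal β-oxidation enzyme gene, fell by 2.75 in PPARα/CREB3L3-/- and by 2.82 in PPARα-/- livers, and was at -0.47 and not called in CREB3L3-/- livers. *Acaa1b*, a peroxisomal thiolase gene, differed by -4.56 in PPARα/CREB3L3-/-, -4.54 in PPARα-/- and -2.41 in CREB3L3-/- livers, and the peroxisomal transporter genes *Abcd2* and *Abcd3* were called in all of them. Of 12 of 15 mitochondrial genes of fatty acid oxidation, 8 were lower in each of the 3 knockouts on the diet, *Cpt2*, *Slc25a20*, *Acadl* and *Hadhb* among them, and 1 was higher in PPARα/CREB3L3-/-, 1 in PPARα-/- and 2 in CREB3L3-/- livers, against the same shares of all probe sets called. The list medians were -0.95 in PPARα/CREB3L3-/-, -0.95 in PPARα-/- and -0.80 in CREB3L3-/- livers, and *Cpt2* differed from WT by -2.24 in PPARα/CREB3L3-/-, -1.94 in PPARα-/- and -1.04 in CREB3L3-/- livers.

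The genes whose pattern over the 30 arrays was most like that of *Vnn1* were *Ehhadh* (r = 0.971), *Serinc2* (0.962), *Pdzrn3* (0.959), *Dbi* (0.956), which encodes the acyl-CoA binding protein, and *Khdrbs3* (0.955). *Ppcs* had *Hsdl2* (0.911), *Cpt2* (0.903) and *Vnn1* (0.903) as its nearest. *Pank1* was closest to *Slc27a2* (0.970), a fatty acid transport and acyl-CoA synthetase gene, *Kmo* (0.969) and *Suox* (0.966), and *Nudt7* to *Mbl1* (0.969), *Ugt3a1* (0.961) and *Fcgrt* (0.961). *Vnn3* had *Abca8a* (0.893) nearest, *Pank3* had *Igfals* (0.920), *Pank2* had *Clic4* (0.873) and *Nudt19* had *Gnpda2* (0.836). Among the members themselves the brighter *Pank1* set and *Nudt7* correlated at 0.927, *Vnn1* with *Ppcs* at 0.903 and *Vnn1* with *Nudt7* at 0.539. The brighter *Nudt19* set and *Nudt7* correlated inversely, at -0.747. These correlations describe arrays that fall into 8 groups sharing genotype and regimen.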

How the data were processed

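Livers of 30 mice were hybridised singly to Affymetrix Mouse Gene 1.1 ST arrays. The deposited values are log2 intensities, which the authors obtained by robust multichip analysis (RMA), that is background correction, quantile normalization and summary per probe set over all arrays. The RMA software version was not found in the labels or methods. Although a remapped, gene-based probe definition is described, the identifiers are the manufacturer's, so values are given per probe set. Arrays give no read depth, and the number of livers limits precision. Groups were taken from the labels. A model of 8 group means was fitted over all 30 arrays and 35556 probe sets with limma 3.58.1 in R 4.3.3 (empirical Bayes with an intensity trend, two-sided, 22 residual and 3.47 prior degrees of freedom), a near equivalent of the methods' intensity-based moderated statistic. A call needed P under 0.001, as in the methods, and a fold beyond 1.2, which the study used for its counts of genes, and Benjamini-Hochberg adjusted p-values cover all probe sets. The same fit gave 19 comparisons. The procedure was tested on simulated data. Named genes were all members, the 3 genes most correlated with each (5 for *Vnn1*) and, of each pathway list, up to 4 with the lowest P in PPARα-/- against WT of either regimen. Members and lists were chosen with earlier results of these data known. Alternatives covered the arrays in the fit, weights, trend, normalization, filters, thresholds, a replicate block and leaving out each array. The labels give replicate numbers, and the methods describe the replicates as biological, which was read as 1 mouse per liver.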

Additional observations from a re-analysis of the deposited data

Results flagged for a closer look

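In groups of 4 livers, 1 value stood far from the other 3 in 4 of 60 cases tested, and chance gives about 1 in 20. *Vnn1* was 11.11 in WT liver 2 on the ketogenic diet and 10.67 to 10.71 in the others. The dimmer *Pank1* probe set was 6.50 in PPARα/CREB3L3-/- liver 3 on the diet and 5.12 to 5.33 in the others. *Ppcs* was 6.11 in fasted PPARα/CREB3L3-/- liver 4 (others 5.87 to 5.89) and 6.61 in fasted WT liver 3 (others 6.75 to 6.76).

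On the diet, the effect of CREB3L3 ablation differed between mice without and with PPARα, by the interaction term of the limma fit. The log2 differences were 1.93 for *Vnn1*, 2.55 for *Vnn3*, 2.77 and 2.34 for the brighter and dimmer *Pank1* sets, -0.51 for *Pank2* and 2.54 for *Nudt7*. The effect of CREB3L3 ablation also differed between the ketogenic diet and the fast, by -2.20 for *Vnn1*, -2.17 for *Vnn3*, -2.47 and -1.74 for the brighter and dimmer *Pank1* sets, -0.74 for *Pank3* and -3.29 for *Nudt7*. The effect of the combined ablation differed by -2.16 for *Vnn1*, -0.35 for *Pank2*, -0.69 for *Pank3* and -2.09 for *Nudt7*. On the diet *Vnn1* without PPARα was within or below the range of the array medians, which bounds its interaction and its combined effect. Cell type markers differed in the same comparisons. The interaction on the diet was positive for 5 of 8 hepatocyte markers and negative for 5 of 12 macrophage and 6 of 8 stellate cell markers. The regimen difference of the CREB3L3 effect was negative for 4 of 8 hepatocyte markers and positive for 6 of 12 macrophage and 6 of 8 stellate cell markers, and that of the combined effect was negative for 5 of 8 hepatocyte, 4 of 7 endothelial and 4 of 12 macrophage markers. The part of these shifts in the differences was not tested.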

How the results depend on the processing

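No called difference changed sign under any alternative run, and leaving out 1 array kept the call status in 5580 of 5700 values, ended it in 93 and added it in 27. Counts of called member probe sets moved by over 1.5 times as follows. PPARα/CREB3L3-/- against PPARα-/- after the fast (1 called) gave 0 with the arrays of the regimen alone, the compared groups alone, array weights, no intensity trend, centring on array medians, repeated quantile normalization, adjusted p under 0.05 or a replicate block, and on the diet (1 called) 0 with the regimen's arrays alone, the compared groups alone or a fold of 2, and 2 with array weights, centring, adjusted p under 0.05 or a replicate block. Replicate numbers did not pair livers of different groups (mean correlation of deviations 0.00742 over 99 same-number pairs, -0.111 to 0.121), and the replicate block also gave 1 in place of 0 for fasted CREB3L3-/- against WT (*Pank3*, 0.27). With the compared groups alone, CREB3L3-/- against WT on the diet gave 4 in place of 7, the diet against the fast 3 in place of 5 in PPARα/CREB3L3-/-, 2 in place of 1 in PPARα-/- and 2 in place of 0 in WT, and the regimen difference of the PPARα effect 3 in place of 0, which was 1 with adjusted p under 0.05. The diet against the fast in PPARα-/- was also 2 with array weights, single-symbol probe sets or adjusted p under 0.05, and in WT 1 with centring. Repeated quantile normalization gave 3 in place of 5 for fasted PPARα-/- against WT. A fold of 2 gave 2 in place of 5 for that comparison, 1 in place of 3 for fasted PPARα/CREB3L3-/- against WT, 3 in place of 5 for fasted PPARα/CREB3L3-/- against CREB3L3-/-, 2 in place of 5 for the diet against the fast in PPARα/CREB3L3-/- and 2 in place of 4 for the regimen difference of the combined effect. Leaving out 1 array, the counts ranged over 3 to 5 for fasted PPARα-/- against WT, 0 to 1 and 0 to 2 for PPARα/CREB3L3-/- against PPARα-/- after the fast and on the diet, 1 to 2 for the diet against the fast in PPARα-/-, and 0 to 1 for the regimen difference of the PPARα effect. The cause of these shifts was not tested, other than stricter thresholds and fewer arrays by construction. Probe sets near the array medians are limited by background. These are *Vnn1* without PPARα on the diet, the dimmer *Pank1* set in CREB3L3-/- livers on the diet, and the dimmer *Nudt19* set. After the fast *Vnn1* reached 4.98 to 7.10 in PPARα/CREB3L3-/- livers, above every array median, and 3.44, 4.70 and 5.25 in PPARα-/- livers.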
